A study of Mus musculus with 2 samples.

Results

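Common fragile sites are stretches of chromosome that show gaps and breaks in metaphase when DNA replication is slowed, and many lie inside very long genes. Such genes are often poor in replication origins and finish replication late, so that their copying runs close to mitosis. Their known lesions include deletions in tumours, above all in FHIT and WWOX in human cells, and fragile sites were first described in cultured human lymphocytes. The 9 mouse genes Fhit, Wwox, Dpyd, Cdh13, Macrod2, Lrp1b, Magi2, Immp2l and Auts2, each known as the host of a common fragile site in human or mouse cells, were taken from a list of names, 9 out of 49997 genes of a RefSeq table for GRCm38.p6, the assembly that mm10 represents. DNA break ends do not test whether a gene is fragile, so the name stands for the list and not for a property measured here.

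Break ends were measured by END-seq, in which the ends of DNA double-strand breaks are captured in agarose-embedded cells and sequenced, so that each read start marks a break end and its strand the side of the break. The series holds 2 libraries, 1 of activated B cells in S phase and 1 of quiescent B cells in G1 phase. The B cells were the CD43-negative cells of spleens from young adult mice, 4 to 8 weeks old. Activation was by IL-4 at 25 ng/mL together with anti-CD40 at 1 µg/mL over 24 to 28 h, agents that drive resting B cells into the cell cycle, and the quiescent cells were cultured without them. Both library titles carry the prefix ATR+c, which the labels do not spell out, and the labels give no sort by cell cycle phase and no number of mice. Break ends in DNA cannot check the B cell label against marker genes. Per its design text, the study mapped breaks with a single end that depend on replication and arise without an external damaging agent.

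In total 21997695 reads were counted in S phase and 28933109 in G1, of which 20543572 S-phase and 26889564 G1 reads lay on chromosomes 1 to 19. On these chromosomes the S-phase reads fell on 7087979 strand-specific positions and the G1 reads on 6738117, so a covered position held 2.90 reads in S phase and 3.99 reads in G1. Levels are given in RPM, reads per 1000000 reads of the library on chromosomes 1 to 19. Because each phase had 1 library, no test was possible, and whether a difference seen here belongs to the phases or to the single libraries cannot be told. Ratios are S phase over G1 phase and carry a 95% interval for counting error only, which stacks of repeated reads make too narrow. For this reason the ratio of each of the 9 gene bodies is also given with every covered position counted once.

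Over the 9 gene bodies together, 87812 reads were found in S phase and 123381 in G1. After scaling, the S-phase level was 0.932 times the G1 level (0.924 to 0.940), or 0.955 times (0.941 to 0.970) with positions counted once. The 7 genes Dpyd, Lrp1b, Macrod2, Fhit, Auts2, Magi2 and Immp2l had intervals below 1, Cdh13 had an interval that held 1, and Wwox was the one gene with an interval above 1. Scaled instead to the pooled genes of at least 300 kb, Cdh13 also had an interval above 1 (1.04, 1.00449 to 1.07). Among all 533 protein-coding genes of at least 300 kb on chromosomes 1 to 19, the interval lay below 1 in 40.3% and above 1 in 26.1%. Among the 88 of at least 850 kb, a length class chosen after the values were seen because all 9 genes exceed it, the shares were 78.4% and 6.82%. The count of 7 of 9 genes below 1 is therefore close to the share among other genes of such length. With positions counted once, 4 genes (Fhit, Dpyd, Macrod2 and Lrp1b) lay below 1 and Wwox above, where 24.6% and 21% of the genes of at least 300 kb did. No such share by positions was taken for the genes of at least 850 kb. By reads the median ratio was 0.940 over the 9 genes, 0.980 over the genes of at least 300 kb and 0.923 over those of at least 850 kb. By positions it was 0.960, 0.994 and 0.940 in the same order.

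**Figure D1:**
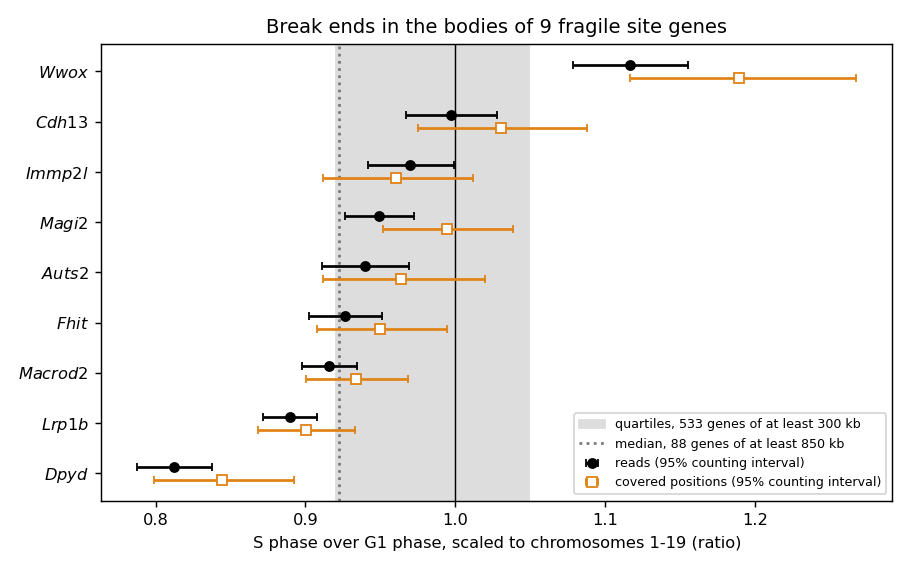
Ratio of S phase to G1 phase in each of the 9 gene bodies (horizontal axis, no unit), ordered from the highest at the top to the lowest, with reads as filled circles, positions counted once as open squares, bars for the 95% counting interval, a grey band for the quartiles of 533 long genes and a dotted line for the median of 88 genes of at least 850 kb. Wwox stands right of 1 at 1.12 and Dpyd farthest left at 0.812.

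Each gene was placed in the order of ratios, from low to high, as Dpyd, Lrp1b, Macrod2, Fhit, Auts2, Magi2, Immp2l, Cdh13 and Wwox. The neighbours Lrp1b and Dpyd differed beyond counting error (1.10, 1.06 to 1.14), as did Wwox and Cdh13 (1.12, 1.07 to 1.17), and Macrod2 lay barely above Lrp1b (1.03, 1.0006 to 1.06). The other neighbours, Macrod2 with Fhit, Fhit with Auts2, Auts2 with Magi2, Magi2 with Immp2l and Immp2l with Cdh13, had intervals that held 1. With positions counted once, Wwox over Cdh13 (1.15, 1.06 to 1.26) was the one pair of neighbours in this order whose interval excluded 1. By reads both ends of the order thus stood apart from their neighbours, and by positions the Wwox end did. Because the order was set by these same ratios, the gaps between neighbours are a description.

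Fhit encodes a hydrolase of diadenosine polyphosphates with tumour-suppressor activity, and it occupies chr14:9550092-11162061. Its body held 29.1 RPM per 100 kb in S phase and 31.4 RPM per 100 kb in G1 (9622 and 13596 reads), a ratio of 0.926 (0.902 to 0.951), or 0.950 (0.908 to 0.994) with positions counted once. Fhit was close to the median of genes of at least 850 kb in this ratio, at place 48 of 88 from the low end. Along the body from left to right by coordinate, 4 parts of equal length had ratios of 0.982, 0.946, 0.951 and 0.829. Fhit lies on the minus strand and the promoter table lists starts at its right end and in the part with 0.951, so the lowest part held the start at the right end. Its highest bin of 50 kb was chr14:10400092-10450091 (398 reads in S phase, 405 in G1, ratio 1.29) and its lowest chr14:11050092-11100091 (257 reads in S phase, 490 in G1, ratio 0.687). These 4 parts were chosen for description after the values were seen.

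Wwox encodes an oxidoreductase with WW domains that is also counted among tumour suppressors, and it occupies chr8:114439635-115352712. Its body held 32.1 RPM per 100 kb in S phase and 28.7 RPM per 100 kb in G1 (6016 and 7053 reads). The ratio was 1.12 (1.08 to 1.16), and 1.19 (1.12 to 1.27) over 2179 S-phase and 1741 G1 positions counted once. Among the 88 genes of at least 850 kb this ratio held place 87 from the low end, and place 88 with positions counted once. In level, Wwox was at place 12 of 88 from the low end in S phase and had the lowest value of all 88 genes in G1. Windows of 1 kb without a read made up 10.1% of the Wwox body in S phase and 15.8% in G1. Such windows were also more frequent in G1 in Immp2l (5.69% in S phase, 8.27% in G1), Cdh13 (10.9% and 12.6%), Fhit, Magi2 and Auts2. They were less frequent in G1 in Dpyd, Macrod2 and Lrp1b. The shares were not scaled between the libraries, and the G1 library had more reads on fewer covered positions. No such share was taken over other long genes, so whether these differences are particular to the named genes was not tested.

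**Figure D2:**
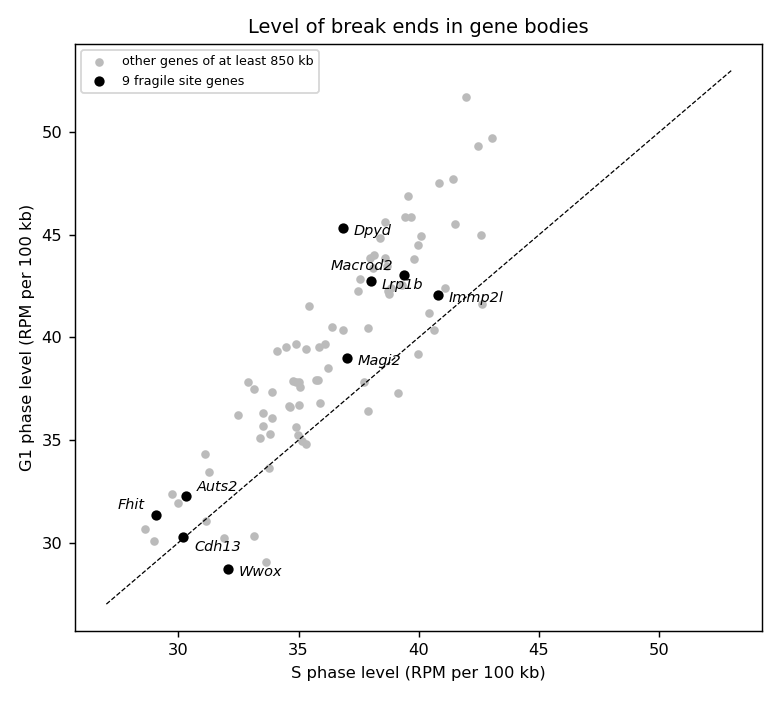
Level of break ends in gene bodies in S phase (horizontal axis) and in G1 phase (vertical axis), both in RPM per 100 kb, for the 9 genes (black, named) and the other genes of at least 850 kb (grey), with a dashed line of equal levels. Wwox lies below the line at 32.1 in S phase and 28.7 in G1, and Dpyd lies above it at 36.8 in S phase and 45.3 in G1.

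In the plot of levels, most of the 88 genes lay above the line of equal levels, with the higher level in G1. Wwox and Dpyd stood on opposite sides of this cloud, and Fhit, Cdh13, Auts2 and Wwox were at its low-level end in both libraries. Levels were not corrected for how much of a gene can be mapped, so the order of genes by level is a description. The ratio of the libraries compares the same bases in both, but it was not corrected for the number of DNA copies of a gene in each phase.

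The higher ratio of Wwox was not even along the gene. Of 4 parts of equal length, the leftmost had a ratio of 1.27 (1.18 to 1.36, with 1518 S-phase and 1565 G1 reads), and the 3 others had 1.07, 1.09 and 1.07. The highest bins of 50 kb in Wwox were neighbours near its left end. In chr8:114489635-114539634 the S-phase library had 368 reads and the G1 library 271 (1.78, 1.52 to 2.09), and in chr8:114539635-114589634, which overlaps the predicted gene Gm16116, they had 394 and 330 (1.56, 1.35 to 1.81). These 2 bins were also the highest of all bins in the 9 genes. With positions counted once the first had 121 S-phase and 66 G1 positions (1.74).

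The first of these bins stood out in G1 more than in S phase. It had the fewest G1 reads of all Wwox bins, where the median bin had 391.0. Its 368 S-phase reads were also above the Wwox median of 328.5, in a range of 281 to 394. The top of that range, 394, was the second of these bins. The first bin had 225 S-phase and 158 G1 reads on the plus strand, with 143 S-phase and 113 G1 reads on the minus strand. Both strands thus went the same way. The bin lay at percentile 99.89 of all 47997 bins of chromosomes 1 to 19 with reads, and its mean level was below the 10th percentile used as a filter on low bins. Without these 2 bins, an alternative added after the values were seen, the Wwox ratio was 1.07 (1.03 to 1.11), and 1.15 (1.07 to 1.22) with positions counted once. The interval thus stayed above 1 without them. The lowest Wwox bin was chr8:115139635-115189634, with 281 S-phase and 416 G1 reads (0.884, 0.757 to 1.03).

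Set against the 7 genes with intervals below 1, pooled to 74446 S-phase and 106680 G1 reads at a ratio of 0.913 (0.905 to 0.922), the Wwox ratio was 1.22 times as high (1.18 to 1.27). With positions counted once it was 1.27 times as high (1.19 to 1.36). The 7 genes were picked by their ratios, so this contrast is a description. Against single genes the Wwox ratio was 1.37 times that of Dpyd, 1.25 times that of Lrp1b, 1.22 times that of Macrod2, 1.21 times that of Fhit, 1.19 times that of Auts2, 1.18 times that of Magi2 and 1.15 times that of Immp2l.

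Dpyd encodes dihydropyrimidine dehydrogenase, the first enzyme of uracil and thymine breakdown, and it occupies chr3:118562109-119432924. Its body held 36.8 RPM per 100 kb in S phase and 45.3 RPM per 100 kb in G1 (6590 and 10617 reads), a ratio of 0.812 (0.788 to 0.838), or 0.845 (0.799 to 0.893) with positions counted once. This was the second lowest ratio of the 88 genes of at least 850 kb, and the value stood at percentile 1.13 of the 533 long genes. The G1 level was at place 78 of 88 from the low end and the S-phase level at place 48. Of its 17 bins, 16 had a ratio below 1 and 8 passed the threshold for lower bins. The 4 parts had ratios of 0.774, 0.749, 0.902 and 0.837 from left to right, so the left of the body, which holds the start of the gene, was lower in S phase than the right.

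The lowest bin in all 9 genes was chr3:118912109-118962108 in Dpyd, with 309 S-phase and 665 G1 reads (0.608, 0.530 to 0.697) and with 136 and 196 positions counted once (0.660). A second bin of Dpyd, chr3:118712109-118762108, was next lowest with 330 S-phase and 653 G1 reads (0.661). The highest Dpyd bin, chr3:119112109-119162108, had 412 S-phase and 524 G1 reads (1.03, 0.902 to 1.17), so no bin of Dpyd stood clearly above 1.

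**Figure D3:**
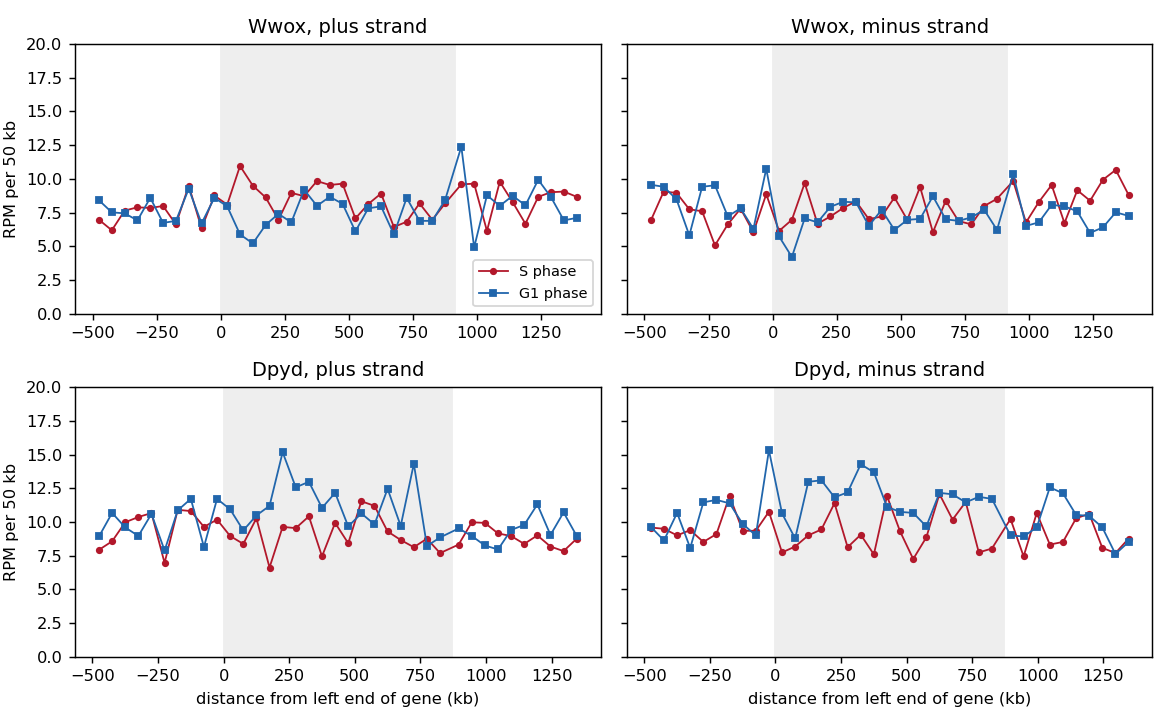
Break ends per 50 kb bin in RPM (vertical axis) along Wwox and Dpyd and their 500 kb flanks (horizontal axis, distance from the left end of the gene in kb), with plus-strand reads in the left panels, minus-strand reads in the right panels, S phase in red, G1 phase in blue and the gene body in grey. In Wwox the libraries part near the left end, where on each strand G1 has its lowest and S phase its highest value of the body. In Dpyd G1 lies above S phase over most of the left of the body on both strands.

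On each strand the direction was the same. The plus-strand ratio was 1.15 in Wwox and 0.827 in Dpyd, and the minus-strand ratio 1.09 in Wwox and 0.799 in Dpyd. In S phase the bodies of both genes were near the level of their flanks, at 0.990 times the flank level in Wwox and 0.991 times in Dpyd. In G1 the Wwox body was at 0.900 times its flank level and the Dpyd body at 1.14 times. Among the 88 genes of at least 850 kb, these G1 values held places 6 and 84 from the low end, and the S-phase values held places 53 and 55. The G1 library thus carried the wider departure between body and flanks in both genes.

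Macrod2 encodes an ADP-ribosylhydrolase, which removes ADP-ribose from proteins, and Immp2l encodes a subunit of the inner mitochondrial membrane peptidase. Macrod2 occupies chr2:140395303-142392966, and the protein-coding gene Flrt3 lies inside it. Immp2l occupies chr12:41024061-41955588 and holds Lrrn3. Macrod2 had 39.4 RPM per 100 kb in S phase and 43.0 RPM per 100 kb in G1 (16171 and 23111 reads), a ratio of 0.916 (0.898 to 0.934), or 0.934 (0.900 to 0.968) with positions counted once. Its 4 parts were the most alike of the 9 genes, with ratios of 0.924, 0.906, 0.916 and 0.917. Its bins ran between chr2:141295303-141345302 (380 S-phase and 714 G1 reads, 0.697) and chr2:141795303-141845302 (408 S-phase and 467 G1 reads, 1.14).

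Immp2l had 40.8 RPM per 100 kb in S phase and 42.1 RPM per 100 kb in G1 (7808 and 10536 reads). Its ratio of 0.970 (0.942 to 0.999) touched 1 from below and held 1 with positions counted once (0.960, 0.912 to 1.01). The plus strand alone gave 1.01, above 1, and the minus strand alone 0.928. The interval of Immp2l is therefore not a firm call. Its bins ran between chr12:41624061-41674060 (421 S-phase and 682 G1 reads, 0.808) and chr12:41374061-41424060 (483 S-phase and 485 G1 reads, 1.30).

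The start sites of Macrod2 and Immp2l lie at their left ends, and there the direction was not that of the bodies. In 2 kb around the left end, a window chosen after the values were seen, Macrod2 had 53 S-phase and 20 G1 reads (3.47, 2.04 to 6.13) on 15 and 7 positions, and Immp2l had 74 and 66 (1.47, 1.04 to 2.08) on 24 and 14. In the 250 bases upstream of a listed Macrod2 start the libraries had 43 and 3 reads (18.8, 6.00 to 94.5). In the same stretch of Immp2l they had 41 and 29 (1.85, 1.12 to 3.09). At Dpyd these 250 bases had 0 reads in both libraries, which allows up to 0.146 RPM in S phase and 0.112 RPM in G1, the level of 3 reads. These 3 upstream stretches are printed 5′ to 3′ on the plus strand from RefSeq, GRCm38.p6, because they show where the S-phase break ends fell at the start sites with the most reads, and a start site without any. Capitals mark each base with at least 1 S-phase read end on either strand. They are Macrod2 at chr2:140395180-140395429, Immp2l at chr12:41023840-41024089 and Dpyd at chr3:118561930-118562179. The gene bodies as counted begin inside these stretches, at base 140395303 in Macrod2, 41024061 in Immp2l and 118562109 in Dpyd. Part of each stretch, with its reads, thus belongs to the body and is not apart from it.
Macrod2: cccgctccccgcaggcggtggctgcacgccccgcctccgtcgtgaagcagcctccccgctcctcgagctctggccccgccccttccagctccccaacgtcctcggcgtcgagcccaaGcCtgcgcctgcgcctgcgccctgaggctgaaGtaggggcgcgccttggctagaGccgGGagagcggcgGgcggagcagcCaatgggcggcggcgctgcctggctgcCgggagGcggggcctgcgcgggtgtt
Immp2l: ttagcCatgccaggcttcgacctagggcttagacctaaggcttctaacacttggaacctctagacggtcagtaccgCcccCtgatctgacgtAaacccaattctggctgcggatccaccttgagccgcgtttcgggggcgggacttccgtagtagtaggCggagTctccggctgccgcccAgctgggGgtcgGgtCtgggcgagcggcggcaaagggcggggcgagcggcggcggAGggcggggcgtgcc
Dpyd: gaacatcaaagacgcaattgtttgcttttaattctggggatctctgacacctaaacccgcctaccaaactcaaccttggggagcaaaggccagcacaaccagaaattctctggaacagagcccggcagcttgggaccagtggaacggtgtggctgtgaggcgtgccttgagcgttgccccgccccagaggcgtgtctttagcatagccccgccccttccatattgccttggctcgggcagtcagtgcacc

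The 43 S-phase reads in the Macrod2 stretch fell on 10 bases, with 12 plus-strand and 31 minus-strand reads, and the 3 G1 reads fell on 2 bases. The 41 S-phase reads in the Immp2l stretch fell on 12 bases and the 29 G1 reads on 8. Both strands were hit in both stretches, and the read counts rest on few positions. The other listed starts did not share a direction. Of the 2 starts of Fhit, the one at chr14:11162036-11162285 had 8 S-phase and 0 G1 reads and the other 0 in both. Of the 2 starts of Magi2, the one at chr5:19907268-19907517 had 0 S-phase and 14 G1 reads and the other 0 in both. The 250 bases of the Macrod2 stretch had 76.4% G and C, at percentile 96.96 of 32851 such stretches in the table, with 30 CG dinucleotides. The Immp2l stretch had 66% and 24 CG dinucleotides, and the Dpyd stretch 56.4% and 10, against medians of 52.4% and 6 over the table. The role of base composition in these read counts was not tested.

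Of the 18 gene ends of the 9 genes, 5 had an interval above 1 and 3 below 1, where 22.3% and 16.1% of the 1066 ends of long genes did. The 5 were the left ends of Wwox, Macrod2, Magi2 and Immp2l and the right end of Magi2. The 3 were the left ends of Dpyd and Lrp1b and the right end of Cdh13. Dpyd had 5 S-phase and 26 G1 reads on 2 and 6 positions. Lrp1b had 14 and 40 reads on 4 and 11 positions, and Cdh13 had 6 and 23 on 2 and 6. The Magi2 ends had 11 S-phase and 3 G1 positions on the left and 9 and 2 on the right. Calls at these gene ends thus rest on few positions, and intervals by positions were not taken. Summed over the 18 windows, S phase had 432 reads and G1 had 446, a ratio of 1.27, and the windows of all long genes had 1.11. The left end of Wwox had 86 S-phase and 60 G1 reads (1.88, 1.33 to 2.65) on 28 and 12 positions.

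Sharp local peaks were few. A bin of 1 kb counted as a local peak when it reached 10 times the median of its surrounding 100 kb, and the 9 bodies held 2 in S phase and 0 in G1 among 12165 bins. In all genes of at least 300 kb, 0.0217% of 304462 bins were local peaks in S phase and 0.0236% in G1, so the 0.0164% of the 9 genes in S phase was near this background. The peak at the left end of Wwox, chr8:114439001-114440000, had 48 plus-strand and 27 minus-strand reads in S phase and 29 and 26 in G1 (1.78, 1.24 to 2.58), on 24 and 11 positions. The other peak, chr12:41515001-41516000 inside Immp2l, had 117 plus-strand and 0 minus-strand reads in S phase and 100 and 6 in G1 (1.44, 1.10 to 1.90). A count of 0 here allows up to 3 reads. Its reads rested on 7 positions in S phase and 9 in G1, and 1 plus-strand base, position 41515119, held 47 S-phase and 32 G1 reads. The same base was thus the highest of Immp2l in both libraries, although the 106 G1 reads of the bin did not reach the threshold.

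Lrp1b encodes a large receptor of the low-density lipoprotein receptor family, and it occupies chr2:40595290-42653598, with the microRNA gene Mir6336 inside. Its body held 38.0 RPM per 100 kb in S phase and 42.7 RPM per 100 kb in G1 (16074 and 23647 reads), a ratio of 0.890 (0.872 to 0.908), or 0.900 (0.868 to 0.933) with positions counted once. Of its 41 bins, 36 had a ratio below 1, and 16 passed the threshold for lower bins, the most of the 9 genes. The 4 parts ran evenly at 0.912, 0.885, 0.889 and 0.872. Its lowest bin was chr2:40995290-41045289 (359 S-phase and 666 G1 reads, 0.706) and its highest chr2:41245290-41295289 (512 and 492, 1.36), which overlaps the predicted gene Gm30138. The flanks of Lrp1b had a ratio of 0.832 (0.798 to 0.868) on the right and 0.961 (0.922 to 1.00098) on the left, so the lower S-phase level extended past the gene on the right side.

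Cdh13 encodes a cadherin that is held in the membrane by a lipid anchor, and it occupies chr8:118140017-119324929. It had 30.2 RPM per 100 kb in S phase and 30.3 RPM per 100 kb in G1 (7350 and 9648 reads), a ratio of 0.997 (0.967 to 1.03), or 1.03 (0.975 to 1.09) with positions counted once. Its leftmost part of 4 had 0.921 and the others 1.01, 1.06 and 1.00. The third highest bin of the 9 genes was chr8:118690017-118740016 in Cdh13, with 377 S-phase and 329 G1 reads (1.50, 1.29 to 1.74), and its lowest bin was chr8:118340017-118390016 (275 and 494, 0.729). The right flank of Cdh13 had a ratio of 1.25 (1.20 to 1.31) and the left flank 0.999, so the body was low against its flanks (0.886, 0.848 to 0.926).

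Magi2 encodes a scaffold of the membrane-associated guanylate kinase family, and it occupies chr5:19219387-20704792. It had 37.0 RPM per 100 kb in S phase and 39.0 RPM per 100 kb in G1 (11292 and 15576 reads), a ratio of 0.949 (0.926 to 0.972) that became 0.994 (0.952 to 1.04) with positions counted once. Its lower S-phase level thus rested on the number of reads per position more than on the number of positions. Its first bin, chr5:19219387-19269386, was the third lowest of the 9 genes, with 292 S-phase and 568 G1 reads (0.673), but its interval held 1 with positions counted once (0.856, 0.661 to 1.11). Its highest bin was chr5:20169387-20219386, with 413 S-phase and 453 G1 reads (1.19).

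Auts2 encodes a nuclear protein that joins Polycomb complexes, and it occupies chr5:131437333-132543220. It had 30.3 RPM per 100 kb in S phase and 32.3 RPM per 100 kb in G1 (6889 and 9597 reads), a ratio of 0.940 (0.911 to 0.969), or 0.964 (0.912 to 1.02) with positions counted once. Its rightmost part of 4 was lowest at 0.879, against 0.973, 0.975 and 0.938 in the others. Its bins ran between chr5:132437333-132487332 (289 S-phase and 543 G1 reads, 0.697) and chr5:132087333-132137332 (374 and 373, 1.31). Low and high bins alternated in Auts2, with 5 past the lower and 2 past the higher threshold among 17.

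**Figure D4:**
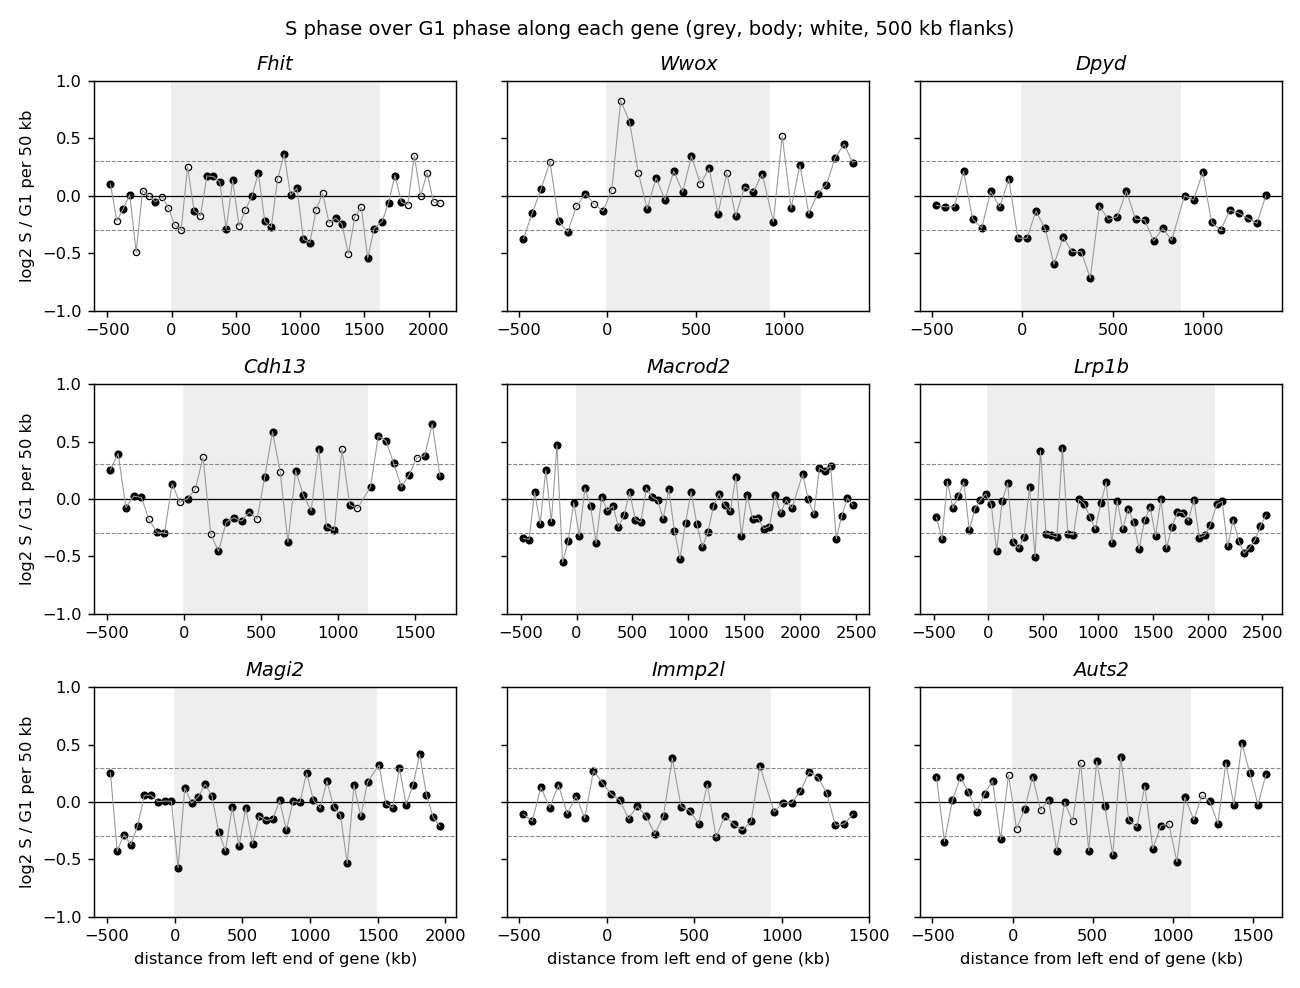
Log2 of the ratio of S phase to G1 phase per 50 kb bin (vertical axis) along each of the 9 genes and its 500 kb flanks (horizontal axis, distance from the left end in kb), with the body in grey, thresholds of 0.3 as dashed lines and bins under the filter on low levels as open circles. Wwox has its highest values next to its left end, Dpyd has a trough in the left part of its body, and Lrp1b lies below 0 along most of its length.

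Across the 239 bins of the bodies, 209 were at or above the 10th percentile of level. Of these, 45 (21.5%) had a log2 ratio of at most -0.3, where 11.2% of the 44284 bins of chromosomes 1 to 19 did, and 11 (5.26%) had at least 0.3, where 13.3% did. Without the filter the counts were 47 lower and 15 higher of 239, where 11.1% and 13.8% of all bins were. With the filter and positions counted once, 25 of 209 were lower and 13 higher, where 9.94% and 13.8% of all bins were. The excess of lower bins was thus smaller by positions than by reads. No such share is given for bins of other genes of at least 850 kb. Whether the excess is particular to the named genes was therefore not tested. By reads the flanks of the same genes had 19 lower (11.9%) and 13 higher (8.18%) among 159 bins. The median log2 ratio was -0.12 in the bodies, -0.02 in the flanks and 0.00 over all bins. Of the 45 lower bins, Lrp1b held 16 and Dpyd 8, and Wwox held 0 lower and 2 higher among its 13 bins past the filter. The lower bins were therefore spread unevenly over the genes.

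Against their own flanks, which need no scaling between libraries, the pooled bodies had a ratio of 0.940 (0.927 to 0.952), with 66594 S-phase and 87911 G1 reads in the flanks at 0.992 (0.982 to 1.00). In 8 of the 9 genes the body was below its flanks, in 7 with an interval below 1, and in Wwox it was above (1.10, 1.05 to 1.15). Among all long genes 37% had such an interval below 1 and 12.9% above 1, with 348 of 533 below 1 and a median of 0.976. The median was 0.950 over the 9 genes and also 0.950 over the 88 genes of at least 850 kb, so the 9 genes were typical of their length. Of the 88 genes of at least 850 kb, Wwox had the highest value, Dpyd held place 8 from the low end (0.869, 0.833 to 0.907), Cdh13 place 14 and Auts2 place 17 (0.899, 0.859 to 0.940). Fhit, Macrod2, Magi2 and Immp2l lay between 0.947 and 0.959, and Lrp1b at 0.993 (0.959 to 1.03). Flanks differed by side in some genes: those of Wwox had 0.932 on the left and 1.10 on the right.

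**Figure D5:**
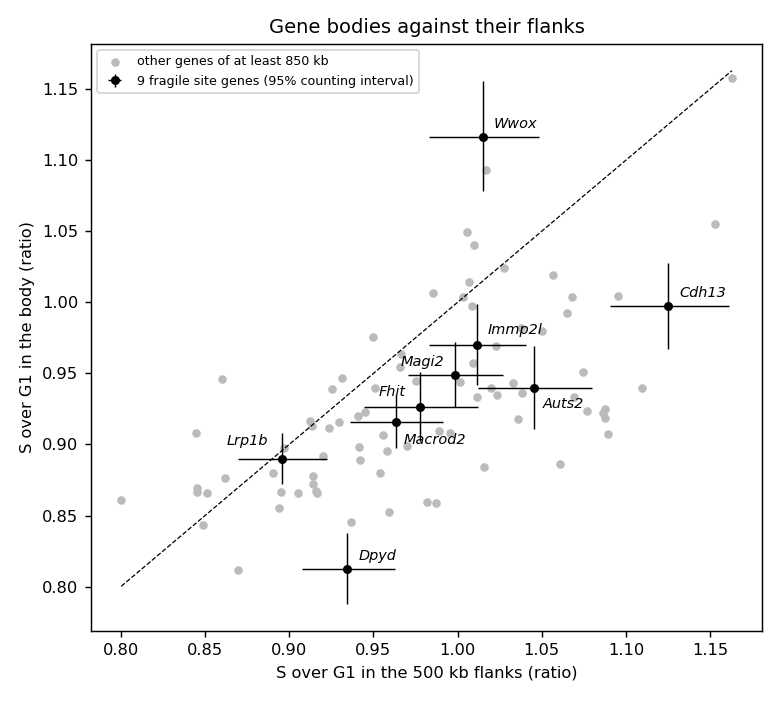
Ratio of S phase to G1 phase in the 500 kb flanks (horizontal axis) and in the body (vertical axis) of the 9 genes (black, bars for the 95% counting interval) and the other genes of at least 850 kb (grey), with a dashed line where both are equal. Wwox lies above the line, with 1.02 in its flanks and 1.12 in its body, and the 8 other named genes lie below it, Lrp1b almost on it.

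The strand of the read ends did not set the phases apart over the 9 genes together. The plus strand held 0.172 percentage points more of the reads in S phase than in G1 (-0.261 to 0.605). In single genes, the shares differed beyond their exact Clopper-Pearson intervals in Macrod2, with 51.1% in S phase and 52.7% in G1, and in Immp2l, with 52.8% in S phase and 50.6% in G1. Such a separation was present in 28% of the long genes, so 2 of 9 is near the background. With positions counted once the difference was -1.56 points (-3.37 to 0.245) in Macrod2 and 1.44 points (-1.15 to 4.03) in Immp2l. Neither interval excluded equal shares. Within genes, the widest difference in a 50 kb bin was in Fhit, where the plus-strand share of chr14:10900092-10950091 was 37.7% in S phase and 64.5% in G1. That bin fell under the filter on low bins and had 89 S-phase and 107 G1 positions. As the extreme of 239 bins, it is a description, and no background of such differences is given.

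Over all long genes the ratio moved with gene length and with the number of genes nearby. The median was 1.00 at 300 to 400 kb, 0.986 at 400 to 600 kb, 0.972 at 600 to 850 kb and 0.923 from 850 kb. It was 0.910 in genes with 0 to 2 protein-coding neighbours within 500 kb and 1.05 in genes with 11 or more. Lrp1b had 0 such neighbours, Fhit, Dpyd and Auts2 had 1 each, Immp2l 2, Wwox 4, Macrod2 and Magi2 6 each and Cdh13 18. Within the genes of at least 850 kb the medians did not rise steadily with neighbours, at 0.890 for 0 to 2, 0.950 for 3 to 5, 0.943 for 6 to 10 and 0.922 for 11 or more. Wwox had the highest ratio of the 22 such genes with 3 to 5 neighbours, at 1.12. The part of length and neighbours in the ratios of the 9 genes was not tested.

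A list of 19 other genes known as hosts of fragile sites, such as Dmd, was counted in the same way. Of its 17 members on chromosomes 1 to 19, 11 had an interval below 1, 3 above 1 and 3 that held 1, with a median of 0.936. The shares among all genes of at least 300 kb were 40.3% below and 26.1% above 1, and from 850 kb they were 78.4% and 6.82%. The highest were Foxp1, which encodes a forkhead transcription factor active in B cells (4822 S-phase and 5660 G1 reads, 1.12, 1.07 to 1.16), Rora (1.06) and Exoc4 (1.04). Among the lowest were Il1rapl1 (6138 S-phase and 9772 G1 reads, 0.822), which lies on the X chromosome, and Naaladl2 (11451 and 17275, 0.868). Foxp1 had a ratio near that of Wwox. Its body over flanks was 1.05, with an interval that barely held 1 (0.999 to 1.10). None of the 17 genes had a body above its flanks beyond counting error, and 12 were below, against 37% of all long genes. With positions counted once the Foxp1 ratio of S phase to G1 was 1.21 (1.12 to 1.30).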

How the data were processed

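END-seq libraries of activated S-phase and quiescent G1 splenic B cells, 1 each, were analysed. The authors deposited bedGraph tracks with raw counts of read ends per base and strand, per the file headers, without normalization. The submitters' processing notes name the build mm10 with bedtools, SAMtools 1.11 and Bowtie 1.1.2. In which order and with which settings these ran, and how duplicates or multiply matching reads were treated, is not given in the sources used here. No molecular identifiers are recorded, so stacked reads may copy 1 molecule.

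Counts were summed over RefSeq gene bodies (GRCm38.p6), 50 kb bins from the left end and 500 kb flanks, strands apart, and scaled to the total on chromosomes 1 to 19, with Python 3.11.15, numpy 2.4.6, pandas 2.3.3, scipy 1.17.1 and matplotlib 3.10.9. For ratios, the conditional exact 95% interval for 2 Poisson counts is given, for ratios of ratios a delta-method interval, and for shares the exact Clopper-Pearson interval. The computations were tested on simulated data with independent Poisson counts, which does not show how the intervals hold for stacked reads. Bins at or above the 10th percentile of mean level were counted at a log2 ratio of 0.3. Upstream stretches came from the RefSeq promoter table, which held 5 of the 9 genes: Fhit, Dpyd, Macrod2, Magi2 and Immp2l. The RefSeq gene table gives no strand, so ends are called left and right.

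The genes named are the 9 genes, the 3 highest and 3 lowest bins, the highest and lowest bin of each gene, the S-phase peaks of at least 50 reads, and the 3 highest and 3 lowest of the 19 other genes, of which 1 is not reported here. The members and lists were chosen with earlier results of these data known. The alternatives were other ways to count stacked reads, scale, bin, filter and set thresholds.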

Additional observations from a re-analysis of the deposited data

How the results depend on the processing

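The Wwox interval stayed above 1 and the pooled interval below 1 under every alternative run for them. With each position counted once, the Wwox ratio was 1.19, the pooled ratio 0.955, Wwox over the lower genes 1.27 and the pooled body over flanks 0.955. Under this count, genes with an interval below 1 numbered 4. Lower bins numbered 25 of 209, against a background of 9.94%. Scaled to the pooled long genes, the Wwox ratio was 1.16, the pooled ratio 0.967 and the genes below 1 numbered 4. Cdh13 had an interval above 1 under this scaling (1.04), and Immp2l changed direction under it (1.01) and on the plus strand alone (1.01). The body over flanks was 0.953 from plus-strand and 0.926 from minus-strand reads. Alternatives were also added after the values were seen: without its 2 highest bins Wwox had 1.07, and without Wwox the pooled ratio was 0.920. The causes were not tested.

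Counts of bins moved with size and threshold by construction. The main setting gave 45 lower and 11 higher of 209. Bins of 100 kb gave 17 lower and 2 higher of 95 (background 6.67% and 8.64%), bins of 20 kb 158 and 74 of 539 (19.9% and 20.9%). A threshold of 0.2 gave 77 lower (21.1%), and 0.5 gave 8 lower and 2 higher (2.09% and 2.98%). Local peaks at 5 times the median numbered 31 in S phase and 33 in G1, of which 4 and 7 lay on 1 strand, and at 20 times 0 in S phase, with 0 on 1 strand. Depth limits single bins, since a 50 kb bin of the 9 genes held 228 to 597 S-phase reads. No paired analysis was possible because each phase has 1 library.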
